A study of Mus musculus with 4 samples.

Results

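ADP-ribosylation attaches ADP-ribose, taken from NAD, to proteins and nucleic acids. The PARP family holds the enzymes that write this mark: Parp1 and Parp2 build chains of it at DNA breaks, while most other members transfer single units. Parg, the poly(ADP-ribose) glycohydrolase, takes chains apart. In macrophages, several single-unit enzymes, Parp14, Parp12 and Parp10 among them, are known as interferon-inducible genes, and Parp9 works in a complex with the ubiquitin ligase Dtx3l.

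The genes described are 9 members of this system, Parp14, Parp9, Parp12, Parp10, Parp8, Parp4, Parp1, Parp2 and Parg, together with Dtx3l, so 10 of the 23783 genes that have a symbol in the deposited table. They were chosen by the measured difference between LPS-treated and control cells, because Parp14, Dtx3l and Parp9 are neighbours that were higher together after LPS. Their changes are therefore given as a description and not as tests. Each gene stands for its most abundant transcript record.

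RNA-seq was run on BV-2, an immortalised mouse line used as a model of microglia, the macrophages of the brain. There were 2 libraries of cells given LPS, a bacterial lipopolysaccharide, for 4 h at 10 ng/ml, and 2 libraries of control cells, also labelled 4 h. The growth protocol speaks of mixed glial cultures as well, but all samples are labelled BV-2. No label says that replicates were separate cultures, and p-values then measure only the spread between these libraries, which may be technical. In bulk RNA, fewer expressing cells and less RNA per cell cannot be told apart.

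Library totals were 3368693 and 3082538 counts after LPS and 2778686 and 3059196 in the controls. The 5 most abundant records set aside, totals were 1423391 and 1327707 after LPS, against 902176 and 1425303 in the controls. Myeloid markers summed to 3610 and 3601 normalised counts after LPS and to 3158 and 2827 in the controls, and 7 of the 12 passed the filter on low counts. Of those 7, 1 was called, the transcription factor gene Spi1, which was higher after LPS. Itgam had 0 counts, and Trem2, Ptprc, Aif1 and Cx3cr1 were below the filter. The 25 markers of astrocytes, oligodendrocytes, neurons and fibroblasts gave sums of at most 1.96 normalised counts per list and library. Of 6981 records tested with edgeR's quasi-likelihood test, 3.82% passed an adjusted p of 0.05 with a higher level after LPS and 1.70% with a lower one, and 1076 had an unadjusted p below 0.05.

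Parp14, Dtx3l and Parp9 lie within 141 kb of chromosome 16 (GRCm38, 35831892 to 35972621). Parp14 spans 35831892 to 35871518. It is separated by 55.0 kb, in which RefSeq lists 2 pseudogenes, from Dtx3l at 35926515 to 35939027. Parp9 spans 35938470 to 35972621, so its RefSeq span overlaps that of Dtx3l by 558 bases at their 5′ ends, on opposite strands. In the matching GENCODE transcripts, 367 bases of the first exons are shared, 10.3% of the exonic length of Parp9 and 6.91% of that of Dtx3l. The strand setting of the authors' counting is not given in the sources used here, so the gene assigned to reads from those bases is not known.

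The shared 5′ region of the neighbours is shown first because these genes were higher together. RefSeq promoter windows (GRCm38.p6, 250 bases before and 50 after a start site) matched 7 of the 10 members. Parp14, Parp9 and Parp10 did not match. The Dtx3l window (chr16:35938978-35939277, minus strand) holds 174 bases of the first exon of Dtx3l in GENCODE, where that gene starts farther upstream. This window is printed 5′ to 3′, and its capitals mark the 83 bases that lie in the first exon of Parp9 on the other strand. The Parp4 window (chr14:56575369-56575668, plus strand) is printed beside it because it alone among the members' windows held the interferon-type letters searched, which its capitals mark.
Dtx3l: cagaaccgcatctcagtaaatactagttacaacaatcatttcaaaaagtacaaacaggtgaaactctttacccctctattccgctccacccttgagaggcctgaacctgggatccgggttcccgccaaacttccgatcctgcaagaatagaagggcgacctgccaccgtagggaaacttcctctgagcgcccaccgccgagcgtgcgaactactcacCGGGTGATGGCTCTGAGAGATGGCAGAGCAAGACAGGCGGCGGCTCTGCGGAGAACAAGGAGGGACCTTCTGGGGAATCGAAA
Parp4: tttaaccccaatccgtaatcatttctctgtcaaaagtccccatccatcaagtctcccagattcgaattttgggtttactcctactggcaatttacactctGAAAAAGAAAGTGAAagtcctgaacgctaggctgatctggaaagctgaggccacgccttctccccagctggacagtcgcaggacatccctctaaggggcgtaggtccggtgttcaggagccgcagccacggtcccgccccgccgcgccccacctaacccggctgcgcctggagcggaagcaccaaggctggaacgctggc

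Both strands of each window were searched for GAAANNGAA, from the core of the interferon-stimulated response element, and for GGGNNNTTC, a loose form of the NF-kB site. GAAANNGAA occurred in 8.56% of 32851 windows of the same length and GGGNNNTTC in 14.0%. Parp4 held GAAANNGAA at 2 overlapping positions, starting at -150 and -144 from the start site. GGGNNNTTC occurred once in the Dtx3l window, at position 29 after the start and inside the capitals, and once in that of Parp12, at -210. The windows of Parp8, Parp1, Parp2 and Parg held none of these letters. Of the 7 members with a window, Parp4 alone held the interferon-type letters, beside 8.56% of all windows. Parp14, Parp9 and Parp10 had no window to search. A match is a description of letters only.

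Parp14 encodes a large enzyme with macrodomains that read ADP-ribose, known as a cofactor of the transcription factor STAT6. It was the member that differed by the largest factor. Its record (NM_001039530) had 225 and 266 counts after LPS and 15 and 38 in the controls, which is 208 and 260 normalised counts after LPS against 21.1 and 32.1 in the controls. Both LPS libraries lay far above both controls. The mean was 234 ± 36.9 after LPS and 26.6 ± 7.76 in the controls (SD, n = 2 each), an 8.50-fold difference and a log2 fold change of 3.09 (SE 0.27). In the order of log2 fold changes Parp14 stood at place 55 of 6981 records, and its control level lay at the 23.3 percentile of tested records. Over 14 alternative settings its log2 fold change ran from 2.87 to 3.46.

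Parp9 encodes a macrodomain protein that pairs with Dtx3l. Its record (NM_030253) had 126 and 119 counts after LPS and 27 and 57 in the controls. Normalised counts were 117 and 116 after LPS against 38.0 and 48.1 in the controls, with no overlap. The log2 fold change was 1.41 (SE 0.25), 2.66-fold, and ran from 1.28 to 1.61 over the alternatives.

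Dtx3l is the ubiquitin ligase of that pair. Its record (NM_001013371) had 193 and 163 counts after LPS and 38 and 92 in the controls, or 178 and 159 normalised counts after LPS against 53.4 and 77.6 in the controls. The LPS libraries again lay above both controls. The log2 fold change was 1.34 (SE 0.24), 2.53-fold, and ran from 1.13 to 1.65 over the alternatives. In all, 3 of the 9 members that passed the filter were called higher and 0 lower in edgeR's quasi-likelihood test, beside 3.82% and 1.70% of all records. The called ones were the genes that the choice of members rested on, so nothing is read from that count. Without LPS replicate 1, Dtx3l was not called, in a fit that leaves 1 LPS library.

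**Figure D1:**
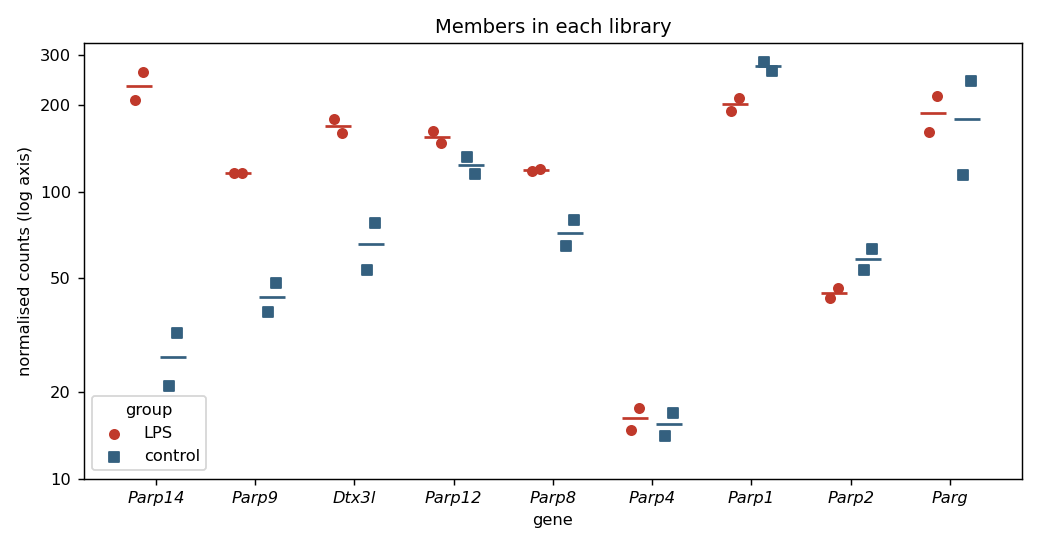
Normalised counts of the 9 members with counts, on a log axis, for each LPS library (red circles) and each control library (blue squares), with the mean of the group as a line. For Parp14 the LPS libraries sit at 208 and 260 and the controls at 21.1 and 32.1, while for Parp4 and Parg the groups overlap.

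As a description of the members' proportions, Parp9 took 39.5% and 42.2% of the summed counts of the pair after LPS and 41.5% and 38.3% in the controls. The exact (Clopper-Pearson) 95% intervals of the 4 libraries all overlap, the widest being 29.4% to 54.4% in control replicate 1. These intervals cover counting error only, since the libraries carry no molecular identifiers. Parp14 took 41.4% and 48.5% of the counts of the neighbouring trio after LPS, with intervals of 37.2% to 45.6% and 44.3% to 52.8%. In the controls it took 18.8% and 20.3%, with intervals of 10.9% to 29.0% and 14.8% to 26.8%, so the intervals of the groups did not meet. These shares come from the counts on which the members were chosen, and no test was made of them.

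Divided by the length of the matching GENCODE transcript, the trio came to similar levels after LPS. The Parp14 transcript reaches 35832874, short of the end of its RefSeq span at 35831892. Its length may thus be too low, and its level per kilobase too high, in both groups. Per kilobase of transcript, Parp14 had 31.6 ± 4.97 normalised counts, Parp9 32.8 ± 0.02 and Dtx3l 31.8 ± 2.53 after LPS (SD, n = 2). In the controls Parp14 had 3.58 ± 1.05 per kilobase, below the 12.1 ± 2.02 of Parp9 and the 12.4 ± 3.22 of Dtx3l. These neighbours in the order of levels did not differ beyond their spread after LPS, and among the controls Parp9 and Dtx3l did not.

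**Figure D2:**
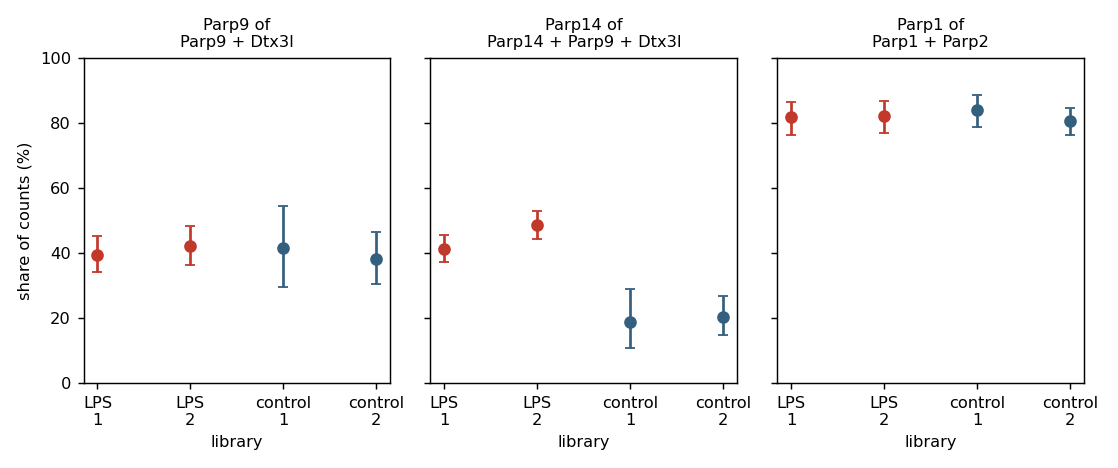
Share of summed raw counts (%) held by Parp9 in the Parp9 and Dtx3l pair (left), by Parp14 in the neighbouring trio (middle) and by Parp1 in the Parp1 and Parp2 pair (right), per library, with LPS in red and control in blue and exact 95% intervals as bars. The middle panel separates the groups, at 41.4% and 48.5% after LPS and 18.8% and 20.3% in the controls, while the other panels stay within their intervals.

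Among the other transferases of single ADP-ribose units, Parp8, Parp12 and Parp4 were not called. Parp8 (NM_001081009, chromosome 13, 116850842 to 117026019) had 118 and 120 normalised counts after LPS against 64.7 and 79.3 in the controls. Its libraries did not overlap, with a log2 fold change of 0.71 (SE 0.23). It was called with the GC and length trend removed. Without control replicate 1 the log2 fold change was 0.60, and without control replicate 2 it was 0.88. Parp12 (NM_172893, chromosome 6, 39086412 to 39118349), a zinc finger protein with antiviral activity, had 163 and 148 after LPS against 132 and 115 in the controls, with a log2 fold change of 0.34 (SE 0.21). The LPS libraries of Parp12 lay above the controls by a margin of the same order as the gap within each group. Parp4 (NM_001145978, chromosome 14, 56575619 to 56659798), a component of vault particles, had 14.8 and 17.6 after LPS against 14.1 and 16.9 in the controls, a log2 fold change of 0.04 (SE 0.39). Its groups overlap, its level per kilobase was the lowest of the members with counts, 2.54 ± 0.31 after LPS and 2.42 ± 0.31 in the controls, and its sign changed in 3 of 13 alternatives.

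Parp10 (chromosome 15, 76232995 to 76243440), a transferase of single units, was the 1 member without a value. Both of its records, NM_001163575 and NM_001163576, had 0 counts in every library, which allows up to 3 counts per library, or 0.891 and 0.973 CPM after LPS and 1.08 and 0.981 CPM in the controls. That limits the counts assigned to these records and not the expression of the gene. Genes with several records had few counts throughout the table: 6.09% of the 4765 genes with 2 or more records had a record that passed the filter, against 34.8% of the 19018 genes with 1. The other 9 members have 1 record each.

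The DNA repair enzymes Parp1 and Parp2 were not called, and their LPS libraries lay below the controls. Parp1 (NM_007415, chromosome 1, 180568891 to 180600999), the main builder of poly(ADP-ribose) chains, had 191 and 212 normalised counts after LPS against 283 and 264 in the controls. Both LPS libraries lay below both controls, with a log2 fold change of -0.44 (SE 0.19) that ran from -0.51 to -0.35 over the alternatives. Parp2 (NM_009632, chromosome 14, 50807897 to 50821301), its close relative, had 42.5 and 46.0 after LPS against 53.4 and 63.3 in the controls, with a log2 fold change of -0.41 (SE 0.26), again with no overlap. Parp1 took 81.7% and 82.2% of the counts of this pair after LPS and 84.1% and 80.7% in the controls, with overlapping counting intervals. In all, 5 members had both LPS libraries above both controls and 2 had both below, where 21.4% and 21.9% of all tested records did so. The 5 include Parp14, Parp9 and Dtx3l, on which the choice of members rested, so nothing is read from that count. Of the 6 other tested members, 2 had both LPS libraries above, 2 had both below and 2 overlapped.

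Parg (NM_011960, chromosome 14, 32201930 to 32298714), the enzyme that removes chains, had 161 and 215 normalised counts after LPS against 114 and 243 in the controls. The controls enclosed the LPS libraries, and the log2 fold change was 0.05 (SE 0.31). It was -0.36 without control replicate 1, 0.71 without control replicate 2 and -0.16 without LPS replicate 2, so its direction hung on which libraries were used.

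Summed over the 10 members, normalised counts were 1193 and 1295 after LPS against 774 and 939 in the controls, 1.45-fold by the ratio of means. The trio summed to 503 and 536 after LPS, against 113 and 158 in the controls. The other 7 members summed to 690 and 759 after LPS and to 661 and 782 in the controls, so that outside the trio the sums overlap. As a share of the raw counts of all members, the trio took 42.2% and 41.4% after LPS and 14.5% and 16.8% in the controls, and Parp1 took 16.0% and 16.4% after LPS and 36.5% and 28.1% in the controls. Parp1 was the most abundant member per kilobase in both groups, with 52.0 ± 3.97 after LPS and 70.6 ± 3.39 in the controls. Next after LPS came Parp12 at 48.0 ± 3.29 and Parg at 42.6 ± 8.70, levels that Parp1 did not exceed beyond their spread.

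The control libraries differed with the base composition of transcripts, and the members followed that. Across 6934 tested records, Spearman's rho between GC content and the log2 ratio of control replicate 1 over control replicate 2 was 0.66, against 0.27 for the LPS libraries, where records share libraries and are not independent. Among the 9 members rho was 0.88 in the controls. Parg, with the lowest GC content at 45.8%, had a log2 ratio between the controls of -1.09, whereas Parp1, the highest at 52.7%, had 0.10. Parp14 had -0.59 at 46.3%. Its LPS libraries averaged 3.43 above control replicate 1 and 2.84 above control replicate 2 on the log2 scale. Parp9 stood 1.60 and 1.27 above the same libraries, and Dtx3l 1.65 and 1.11. With the GC and length trend removed, the log2 fold changes of Parp14, Parp9 and Dtx3l were 3.13, 1.37 and 1.33. In the main fit they were 3.09, 1.41 and 1.34. The part of base composition in the differences between libraries was not tested.

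**Figure D3:**
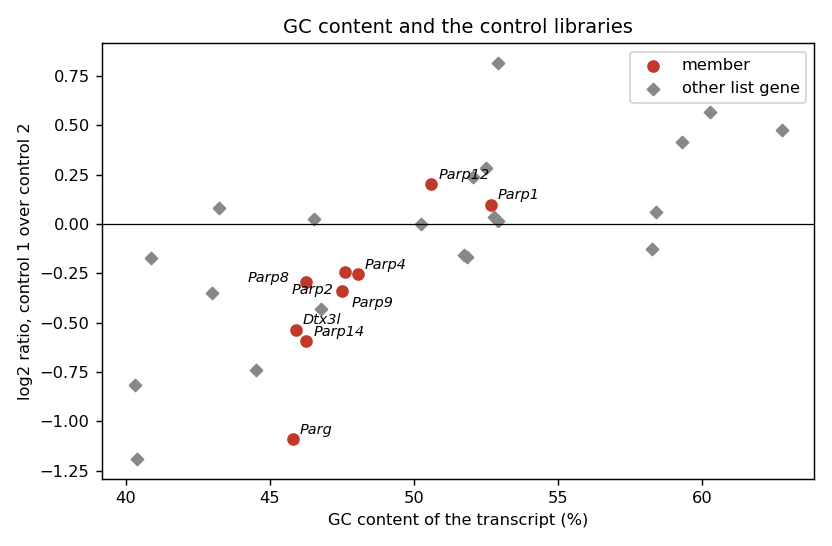
GC content of the transcript (%) against the log2 ratio of control replicate 1 over control replicate 2, for the 9 members with counts (red circles) and the other tested genes of the ADP-ribosylation and NAD lists (grey diamonds). Members of lower GC content mostly lie lower, with Parg at -1.09 and Parp1 at 0.10 at the ends of their GC range.

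Genes around the trio were examined within 500 kb on either side. Of 21 such genes, 6 passed the filter. In edgeR's quasi-likelihood test 0 of them were called, beside 5.53% of all records. In DESeq2 and limma-voom 0 were called as well, beside 269 and 362 of 6981 records. With only 6 genes, nothing is read from these counts. In the edgeR test 1 gene had an unadjusted p below 0.05, beside 1076 of 6981 records. That gene was Slc49a4, of the solute carrier family of membrane transporters, with 31.4 and 17.6 normalised counts after LPS against 12.7 and 6.75 in the controls (log2 fold change 1.42, SE 0.47, adjusted p 0.138 in edgeR's quasi-likelihood test). Its raw counts were 34 and 18 after LPS against 9 and 8 in the controls. Both controls were below the minimum count of 10, so it passed the filter only through the LPS libraries. It was called without a filter on low counts (adjusted p 0.0156) and with the GC and length trend removed (adjusted p 0.0430). Nothing is read from these calls. With 1 library left out, the log2 fold change of Slc49a4 ran from 0.94 to 1.86. Hspbap1, the nearest tested gene beyond Parp14, had 19.4 and 25.4 after LPS against 22.5 and 10.1 in the controls, which overlap. Kpna1, an importin gene next to Parp9, had 403 and 415 after LPS against 301 and 394 in the controls (log2 fold change 0.23, adjusted p 0.727 in the same edgeR test). With 1 library left out, its log2 fold change ran from 0.06 to 0.44. Fam162a, Sec22a and Pdia5 had log2 fold changes of 0.26, 0.10 and 0.03. A further 12 genes, most of them of the stefin and cystatin cluster, had 0 counts in every library.

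**Figure D4:**
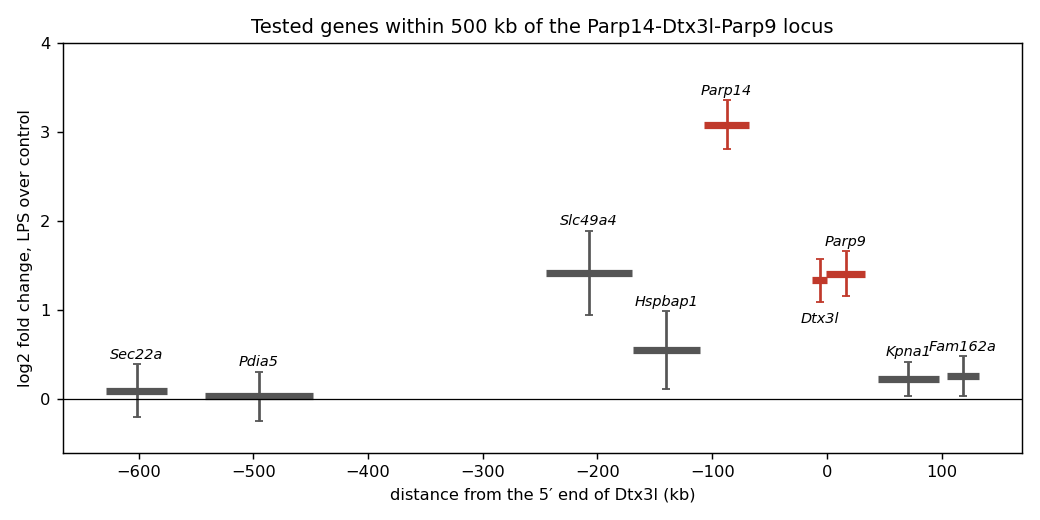
Log2 fold change of LPS over control (vertical axis, bars: standard error) for the tested genes within 500 kb of the trio, drawn as horizontal bars over their annotated spans at the distance in kb from the 5′ end of Dtx3l. Parp14 at 3.09, Parp9 at 1.41 and Dtx3l at 1.34 are in red, and the 6 other genes in grey lie between 0.03 and 1.42.

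Of 48 other genes of ADP-ribosylation and NAD metabolism, 21 passed the filter, and 1 rose and 0 fell, beside 5.53% of all records called in either direction. Of the 48, 17 have several records, and 1 of those 17 passed the filter, so the list was only partly measured. The median log2 fold change of the 21 was -0.02, against -0.01 over all tested records. The gene that rose was Cd38, a surface enzyme that breaks down NAD, with 52.7 and 62.6 normalised counts after LPS against 23.9 and 27.0 in the controls (log2 fold change 1.16, SE 0.29, adjusted p 0.0386 in edgeR's quasi-likelihood test). The adjusted p of Cd38 was 0.245 in the DESeq2 Wald test and 0.0527 with upper-quartile factors. With either LPS library left out it was not called, in fits with 1 LPS library.

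Among the other transferases, 6 of 8 passed the filter and 0 were called, beside 5.53% of all records. An unadjusted p below 0.05 was found for 0 of them, beside 1076 of 6981 records. Tiparp, which represses the aryl hydrocarbon receptor, had 121 and 133 normalised counts after LPS against 54.9 and 126 in the controls, so control replicate 2 lay within the range of the LPS libraries. Its log2 fold change was 0.45 (SE 0.32), and 1.20 without control replicate 2, a fit that leaves 1 control library. Tnks2, a tankyrase with more normalised counts per kilobase than any member, 126 after LPS and 137 in the controls, had 794 and 838 after LPS against 667 and 1113 in the controls, with a log2 fold change of -0.13 (SE 0.23). Its log2 fold change was -0.44 without control replicate 1 and had the other sign, 0.29, without control replicate 2. Parp3, Parp11, Zc3hav1, which encodes the antiviral zinc finger protein ZAP, and Tnks had log2 fold changes between -0.16 and 0.27.

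Of the other enzymes that remove ADP-ribose 3 of 6 passed the filter, of the proteins that read it or partner with the transferases 3 of 10, and of the Deltex family 2 of 4. Of these genes 0 were called in edgeR's quasi-likelihood test, beside 5.53% of all records, and Adprh and Dtx4 had an unadjusted p below 0.05. Adprh, which removes ADP-ribose from arginine, had 79.5 and 85.1 normalised counts after LPS against 52.0 and 51.5 in the controls, with no overlap and a difference of 0.67 on the log2 scale (SE 0.24, adjusted p 0.192 in edgeR's quasi-likelihood test). It was called with the GC and length trend removed (adjusted p 0.0416). With 1 library left out, its log2 fold change ran from 0.63 to 0.73. Macrod1, a macrodomain hydrolase, had a log2 fold change of -0.65 (SE 0.37). Hpf1, the cofactor that directs Parp1 and Parp2 to serine, had -0.12 (SE 0.26), and Xrcc1, a repair scaffold recruited by poly(ADP-ribose), -0.02 (SE 0.28). In the Deltex family, Dtx4 had 508 and 498 after LPS against 401 and 339 in the controls (log2 fold change 0.45, SE 0.18, adjusted p 0.261 in the same edgeR test). Dtx4 was also called with the GC and length trend removed (adjusted p 0.00468). Its log2 fold change ran from 0.32 to 0.58 with 1 library left out. Dtx3 had a log2 fold change of -0.30 (SE 0.34).

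Nampt, the rate-limiting enzyme of NAD salvage, had 892 and 1067 normalised counts after LPS against 489 and 863 in the controls. The lower LPS library lay just above the higher control. Its log2 fold change was 0.53 (SE 0.25, adjusted p 0.346 in edgeR's quasi-likelihood test). With 1 library left out it ran from 0.19 to 1.00, and such fits take their spread from 1 group alone. Nampt was called with the GC and length trend removed (adjusted p 0.0326 in the same edgeR test). Sirt7, a sirtuin that uses NAD, had a log2 fold change of -0.57 (SE 0.29), and the NAD synthesis genes Nmnat1, Nmnat3, Nadsyn1 and Nmrk1 between -0.50 and 0.04.

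**Figure D5:**
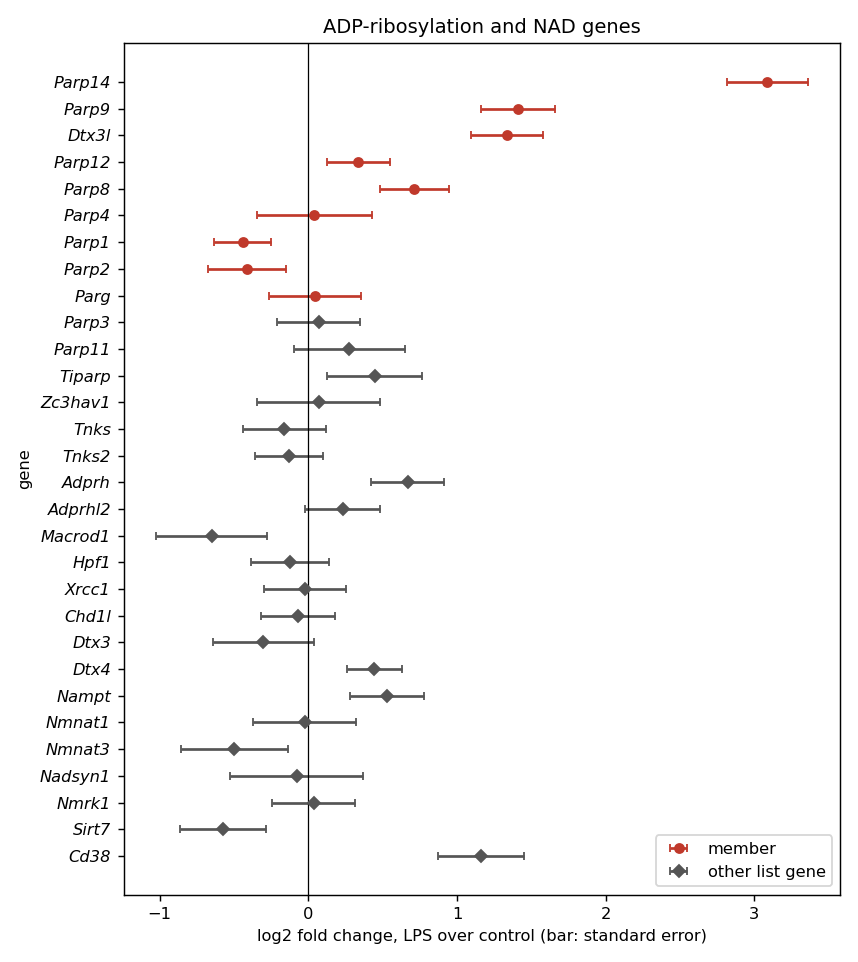
Log2 fold change of LPS over control with its standard error for the 9 members with counts (red circles) and the 21 other tested genes of the ADP-ribosylation and NAD lists (grey diamonds). Parp14 at 3.09 lies farthest right, Cd38 at 1.16 is the highest of the other genes, and Macrod1 at -0.65 the lowest.

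The level of the trio was set beside interferon-stimulated genes from a fixed list, of which 24 of 42 passed the filter and 11 rose, with 0 lower, beside 3.82% higher and 1.70% lower of all records. The list's median log2 fold change was 1.61, against -0.01 over all tested records. The 8 genes named next were those called with the largest absolute change. Each had at most 8 counts in a control library, below the minimum of 10, and passed the filter only through the LPS libraries. The 11 calls and the median include these genes, so nothing is read from them. Rsad2 and Ifit1, antiviral effectors, rose by 4.71 and 4.25, Cmpk2 by 3.92 and Isg15, a ubiquitin-like modifier, by 3.74 on the log2 scale. Oasl2 and Oas2, of the oligoadenylate synthetase family, rose by 2.61 and 2.59, Rtp4 had 48 and 54 counts after LPS against 1 and 1 in the controls, and Gbp2 had 21 and 12 against 0 and 0. With 1 library left out, the log2 fold change of Rsad2 ran from 4.49 to 5.14 and that of Oas2 from 2.44 to 2.71. Irf1, Irf7 and Irf9, regulators of interferon responses with 3 records each, were below the filter.

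The records most like Parp14 over the 4 libraries were Ccl2, Zc3h12c, Pilra, Bcl3, Lacc1 and Nlrp3. Likeness was the root mean square difference of log2 normalised counts centred on each gene's mean, with a pseudocount of 0.5. It was 0.099 for Ccl2, a monocyte chemokine, 0.13 for Zc3h12c, a ribonuclease-like zinc finger gene, and 0.21 for Nlrp3, an inflammasome sensor, the farthest of the 6. Ccl2 had 1741 and 2294 normalised counts after LPS against 215 and 279 in the controls. The 6 had log2 fold changes from 3.02 to 3.29, beside 3.09 for Parp14. With 4 libraries in 2 groups, likeness mostly follows the difference between LPS and control, on which the members were chosen. It is a description, and nothing is read from it. Bcl3 had 15 and 19 counts after LPS against 1 and 2 in the controls, and passed the filter only through the LPS libraries.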

How the data were processed

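RNA-seq of 4 BV-2 libraries was analysed. Libraries were directional, paired-end and depleted of ribosomal RNA, per the labels' protocols. The deposited values are whole-number counts for each RefSeq transcript. Although the table's name says normalised, library totals differ, and the counts were taken as raw. The submitters' processing notes name HTSeq 0.6.1, Cufflinks 2.2.1, the build mm10, TopHat2 2.0.10, CASAVA 1.8.2 and Trimmomatic 0.33. For their roles, the annotation and the strand setting, nothing is given in the sources used here.

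Of 32915 records, 32487 matched a symbol in RefSeq GRCm38.p6. Records were kept by filterByExpr (minimum count 10), scaled by TMM and tested for a difference between LPS and control with edgeR 4.0.16 (quasi-likelihood test, R 4.3.3), with Benjamini-Hochberg adjustment over 6981 records and a threshold of 0.05. Normalised counts are scaled to the mean effective library size. The SE is the absolute log2 fold change divided by the square root of the F statistic. Length and GC content come from GENCODE M21 transcripts. DESeq2 1.42.0 and limma 3.58.1 (voom) were alternatives. The fit was tested on simulated data. Members, lists and tests were chosen with earlier results of these data known. Named genes were the members, the tested genes of the ADP-ribosylation and NAD lists and near the trio, 8 interferon-stimulated genes and the 6 records most like Parp14. Motif letters were also chosen with values known, and were shortened after a first search with longer forms, in which Parp4 alone matched. A further motif searched is not reported here.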

Additional observations from a re-analysis of the deposited data

How the results depend on the processing

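The direction of Parp14, Parp9 and Dtx3l was the same in all 14 alternatives run, but Dtx3l was not called without LPS replicate 1. Counts of calls moved with the settings. Leaving out 1 library leaves its group with 1, so the spread in those fits comes from the other group alone. Of the members, 3 were called, and 2 to 6 when 1 library was left out. Of the other ADP-ribosylation and NAD genes 1 was called, against 0 with upper-quartile factors, under a stricter filter (mean normalised count of 50 or more) or in DESeq2, 4 with the GC and length trend removed, and 0 to 4 when 1 library was left out. Interferon-stimulated genes gave 11 calls, 2 of 7 tested under the stricter filter, and 11 to 18 when 1 library was left out. Near the trio 0 were called, 1 without a filter on low counts or with the GC and length trend removed, and 0 to 1 when 1 library was left out. Over all records there were 386 calls, 218 under the stricter filter, 780 with the GC and length trend removed, of which 440 were higher and 340 lower rather than 267 and 119, and 204 to 1304 when 1 library was left out. Fewer records were tested under the stricter filter, and otherwise the cause was not tested.

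Replicates 1 and 2 share numbers between the groups, but nothing in the labels ties them. Their deviations had a correlation of 0.23 across genes in the 2 pairs. With the replicate block, 4 members, 2 other ADP-ribosylation and NAD genes, 1 gene near the trio and 689 records were called, of which 401 were higher and 288 lower. The block added Parp8, Nampt (adjusted p 0.0230) and Slc49a4 (adjusted p 0.0303) to those called. Cd38 lost its call with upper-quartile factors, in DESeq2 and without either LPS library. Depth limits the members of low level, such as Parp4 with 10 to 20 counts per library.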
